A study of Mus musculus with 4 samples.

Results

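The inhibitory receptors and inhibitory proteins that T cells, NK cells and myeloid cells carry besides PD-1 were followed through single-cell RNA counts of mouse tumours. They were Lag3 (LAG-3), Havcr2 (TIM-3), Tigit, Cd160, Entpd1 (CD39), Lgals9 (galectin-9) and Vsir (VISTA). They were chosen by name, and all 7 were among the 13071 genes of the table that joins both tumour types. A table of monocytes and macrophages held 6 of them, without Tigit. Lag3 lies on mm10 chromosome 6 at 124904361 to 124911705, minus strand, 16.1 kb from Cd4. Havcr2 lies on chromosome 11 at 46454935 to 46481255, plus strand, and Lgals9 on the same chromosome at 78962974 to 78984946, minus strand. Tigit lies on chromosome 16 at 43648867 to 43664146, minus strand. Cd160 lies on chromosome 3 at 96798763 to 96829351, minus strand. Entpd1 lies on chromosome 19 at 40612366 to 40741602, plus strand, and Vsir on chromosome 10 at 60346851 to 60372684, plus strand.

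LAG-3 binds MHC class II and holds back T cell activation. TIM-3 and TIGIT mark chronically stimulated T cells, with galectin-9 among the described ligands of TIM-3 and the poliovirus receptor (Pvr) a ligand of TIGIT. CD160 binds HVEM (Tnfrsf14) and is carried by NK cells and some CD8 T cells. CD39 is an ectoenzyme that breaks down extracellular ATP, and CD73 (Nt5e) turns its product into adenosine. VISTA is carried mainly by myeloid cells and also acts on T cells.

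The study concerned CD40 agonists, dendritic cells and suppressive macrophages, and sequenced cells of subcutaneous tumours with 10x Genomics droplets. The LLC library came from Lewis lung carcinoma grown in F11r fl/fl LysM-Cre- mice, which carry a floxed F11r gene and no Cre. The B16 library came from B16 melanoma in C57BL/6J mice. The library called LLC CITE-seq came from LLC tumours in C57BL/6J mice, and its cells were also stained with DNA-tagged antibodies. The labels name no treatment and no age for any of them. Each library pooled the tumours of 3 mice, so each tumour type and assay was 1 sample, mouse-to-mouse spread was not measured and no test between groups was possible. LLC and B16 differ in tumour, strain and library together, and these cannot be told apart.

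Values are UMIs (unique molecular identifiers, 1 per captured RNA molecule) of a gene summed over the cells of an annotated cluster, per 1000000 UMIs of those cells (CPM). Brackets hold exact Poisson 95% intervals for levels and exact conditional binomial 95% intervals for ratios, which cover counting error only. Higher and lower mean a ratio of at least 1.5-fold with at least 20 UMIs over both sides, a rule of size alone. The joint table divided its 13021 LLC cells and 6870 B16 cells into 25 clusters named by the authors, with medians of 6174 and 8315 UMIs per cell. Only clusters with at least 50 cells in a library are described unless their cell number is given. LLC had 15 CD8 T cells against 1224 in B16, and 41 cells of the first regulatory T cell cluster (Tregs-1) against 546, so these classes were described in B16 only. The marker lists followed most labels. CD8 T cells carried 5916 CPM of summed T cell genes, NK cells carried 1814 CPM (B16) and 1653 CPM (LLC) of NK genes, and B16 plasmacytoid dendritic cells (pDC) carried 1770 CPM of Siglech. The second regulatory T cell cluster (Tregs-2) went against its label in part, with 8360 CPM of monocyte and macrophage genes beside 747 CPM of regulatory T cell genes. Of its 165 B16 cells, 102 bore a monocyte or macrophage name in the authors' separate annotation of B16. LLC and B16 shared 29 cell barcodes, the CITE-seq library shared 24 with LLC and 21 with B16, and no cell was removed for them.

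The promoter sequences are shown for Lgals9, which was higher in interferon-marked macrophages of each library. Havcr2 and Vsir, which were not higher there, are shown for comparison, though Vsir was lower there in B16. They are RefSeq sequences of GRCm38.p6, the 250 bases before each annotated start, 5′ to 3′ on the gene's strand. Capitals mark a match to the core letters of the interferon-stimulated response element, GAAA and again GAAA after any 2 bases, searched on both strands. In both Lgals9 matches the letters lie on the strand opposite to the gene, and the printed strand shows their reverse complement.
Lgals9, chr11:78984925-78985174, minus strand: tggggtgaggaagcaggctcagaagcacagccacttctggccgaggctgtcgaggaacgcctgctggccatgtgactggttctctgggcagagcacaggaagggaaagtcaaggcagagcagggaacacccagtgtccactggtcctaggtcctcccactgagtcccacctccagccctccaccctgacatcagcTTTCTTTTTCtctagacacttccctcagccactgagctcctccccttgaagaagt
Lgals9, chr11:78984890-78984919, minus strand, around the match after the start: atagctgtggTTTCTGTTTCctagctcagc
Havcr2, chr11:46454681-46454930, plus strand: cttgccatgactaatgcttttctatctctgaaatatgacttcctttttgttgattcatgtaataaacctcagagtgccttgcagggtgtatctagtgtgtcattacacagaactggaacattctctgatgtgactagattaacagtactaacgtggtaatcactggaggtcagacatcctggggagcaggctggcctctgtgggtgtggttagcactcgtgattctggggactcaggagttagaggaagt
Vsir, chr10:60346601-60346850, plus strand: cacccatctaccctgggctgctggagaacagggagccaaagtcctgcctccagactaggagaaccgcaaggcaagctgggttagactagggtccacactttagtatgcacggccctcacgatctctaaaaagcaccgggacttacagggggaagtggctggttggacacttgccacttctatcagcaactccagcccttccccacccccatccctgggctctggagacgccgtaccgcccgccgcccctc
RefSeq gave 8 promoters, each from 250 bases before to 50 after a start, for 6 of the 7 genes. Lgals9 held 2 matches, beginning at -55 and at 15 bases from its start, and the promoters of Havcr2, Tigit, Cd160, Entpd1 and Vsir held 0. The letters were present in 1131 of 32851 promoters of that length (3.44%). The GAS letters TTCNNNGAA, bound by STAT factors, were in 1 of the Cd160 promoters, and in 2726 of all promoters (8.30%). A match is a run of letters and no measurement of binding.

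Lag3 was spread very unevenly over the B16 cells. Its level was 283 CPM [272–293] in CD8 T cells (2907 UMIs in 787 cells), 254 CPM [224–286] in pDC (260 UMIs in 114 cells), 198 CPM [183–213] in Tregs-1 and 161 CPM [152–170] in proliferating CD8 T cells. CD8 T cells and pDC did not differ beyond counting error here, though in the authors' annotation of B16 alone they were apart, at 341 CPM [327–356] and 254 CPM [224–286]. The next levels were 74.9 CPM in Tregs-2 and 34.0 CPM in type 1 conventional dendritic cells (cDC1). Naive T cells held 21.8 CPM [16.9–27.7] and NK cells 19.8 CPM [13.0–29.1], which overlapped. Over 19 B16 clusters the level ran from 0.722 CPM in monocytes to 283, with a median of 19.8. Lag3 UMIs were found in 89.5% of CD8 T cells (median 11176 UMIs per cell) and in 83.3% of pDC (median 7592), against 0.473% of monocytes (median 6417). At 2000 UMIs per cell, as the mean over all possible draws, the shares were 43.7%, 40.4% and 0.149%. In LLC the highest Lag3 level among the 16 clusters with 50 or more cells was 29.3 CPM [18.1–44.7] in NK cells, and their median was 0.158 CPM.

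The pDC level of Lag3 was as large in the cells without T cell gene UMIs. B16 pDC also carried 623 CPM of the 6 T cell genes and 499 CPM of the CD8 genes. Among the 78 pDC without a UMI of any of 7 T or NK cell genes (Cd3d, Cd3e, Cd3g, Trac, Trbc2, Nkg7 and Ncr1), Lag3 stood at 278 CPM [238–323], with 173 Lag3 UMIs and 0 UMIs of Cd160. The 36 pDC with such a UMI held 216 CPM [173–267]. In LLC, 21 pDC held 23 Lag3 UMIs, or 187 CPM [118–280], with 0 UMIs over the 6 T cell genes. The CD8 genes stood at 405 CPM (50 UMIs) in these LLC pDC. All 114 B16 pDC of the joint annotation were also named pDC in the annotation of B16 alone.

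**Figure D1:**
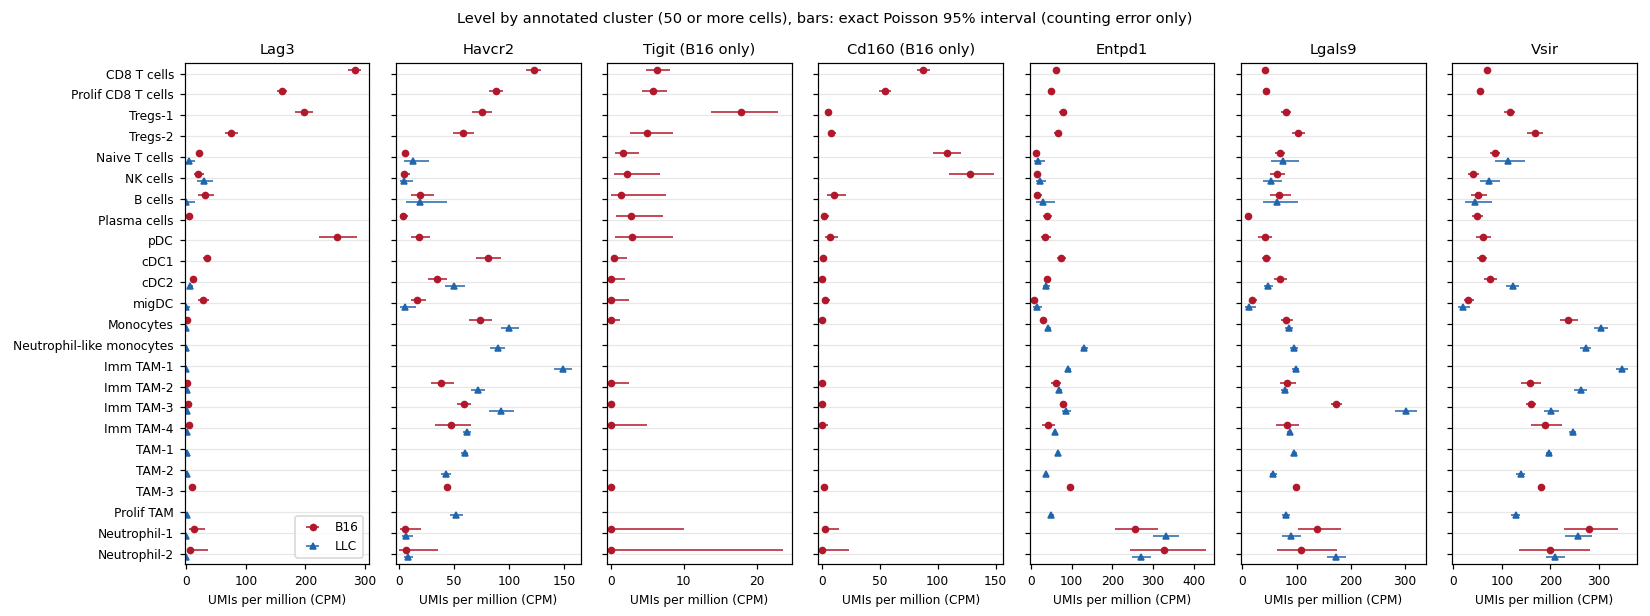
Level of each gene in CPM (x axis, linear) in each annotated cluster with 50 or more cells (y axis). Red circles are B16 and blue triangles LLC, with exact Poisson 95% intervals that cover counting error only. Lag3 is highest in B16 CD8 T cells (283 CPM) and pDC (254 CPM), Cd160 in NK cells (128 CPM), Entpd1 in neutrophils, and Lgals9 in Imm TAM-3 of LLC (302 CPM).

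Havcr2 was divided between T cells and myeloid cells. In B16 it stood at 122 CPM [115–129] in CD8 T cells and 87.9 CPM in their proliferating cluster, at 80.3 CPM in cDC1, 74.8 CPM in Tregs-1 and 73.3 CPM [63.6–84.1] in monocytes. Only CD8 T cells stood clear of the next cluster in that list. From proliferating CD8 T cells through cDC1 and Tregs-1 to monocytes, neighbours overlapped, and only neighbours were compared. Naive T cells held 4.96 CPM (15 UMIs) and NK cells 4.58 CPM (6 UMIs). In LLC the highest levels were all in myeloid clusters, with 149 CPM [141–157] in immature tumour-associated macrophages of cluster Imm TAM-1, 100 CPM in monocytes and 92.2 CPM in Imm TAM-3, and the lowest was 4.18 CPM in NK cells. Havcr2 UMIs were found in 65.3% of B16 CD8 T cells, against 1.75% of naive T cells (median 3736 UMIs per cell). At 2000 UMIs per cell, as the mean over all draws, these were 20.7% and 0.807%.

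Tigit was the most sparsely counted of the receptors. It stood at 17.9 CPM [13.7–22.9] in Tregs-1 (62 UMIs), 6.32 CPM [4.88–8.05] in CD8 T cells, 5.85 CPM [4.33–7.73] in proliferating CD8 T cells and 4.99 CPM in Tregs-2. CD8 T cells, proliferating CD8 T cells and Tregs-2 overlapped. Naive T cells held 5 UMIs, NK cells 3, and all other B16 clusters at most 4 UMIs. Tigit UMIs were found in 11.2% of Tregs-1 cells, against 0.155% of TAM-3 cells (median 15738 UMIs per cell, against 4475 in Tregs-1).

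Cd160 marked NK cells and the naive T cell cluster as well as CD8 T cells. In B16 it stood at 128 CPM [110–149] in NK cells, 108 CPM [96.3–120] in the naive T cell cluster, 87.8 CPM [82.1–93.7] in CD8 T cells and 54.7 CPM [49.8–59.9] in proliferating CD8 T cells. NK and naive T cells overlapped. Tregs-1 held 5.47 CPM [3.29–8.54]. The naive T cell cluster was mixed: 303 of its cells had Cd8a or Cd8b1 UMIs and no Cd4 UMI, and held 123 CPM of Cd160, while 116 cells with Cd4 and no Cd8 UMI held 25.3 CPM [12.6–45.2]. A further 315 cells had none of these UMIs, and held 123 CPM of Cd160 with 375 CPM of Trdc, the constant gene of the gamma-delta T cell receptor. Lag3 in these cells was 26.8, 29.9 and 11.5 CPM in that order. Klrd1, an NK receptor gene, was 451, 154 and 528 CPM in the same order, and the name naive is the authors' label. The splits were made on UMIs of the same cells, so a cell without a UMI of Cd4 or Cd8 can still express it.

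Neither Cd160 nor Tigit could be compared with LLC. The joint table held 1517 genes with 0 UMIs in every LLC cell, all at its end after 11554 genes with LLC UMIs, and Cd160 and Tigit were among them. At the B16 level, 92.1 Cd160 UMIs would have been counted in the LLC NK cells and 51.6 in the LLC naive T cells. For Tigit, 0.792 UMIs would have been counted in LLC naive T cells.

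Within B16 T cells, CD8 T cells over the naive T cell cluster passed the 1.5-fold rule for 5 of the 7 genes, where 43.2% of 10698 genes passed it in either direction. Havcr2 was 24.6-fold [14.9–44.1] higher in CD8 T cells, Lag3 13.0-fold [10.2–16.8], Entpd1 4.78-fold [3.45–6.78] and Tigit 3.83-fold [1.56–12.2]. Lgals9 was 1.63-fold [1.37–1.92] higher in naive T cells, while Cd160 (ratio 0.815) and Vsir (0.824) stayed between the limits. Tregs-1 over naive T cells passed for 5 of the 7 (37.1% of genes passed in either direction), with 4 higher in Tregs-1: Havcr2 15.1-fold, Tigit 10.8-fold, Lag3 9.06-fold and Entpd1 6.17-fold. Cd160 was 19.7-fold [12.4–33.1] higher in naive T cells.

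CD8 T cells and Tregs-1 differed by the 1.5-fold rule in 5 of the 7 genes (34.4% of genes passed in either direction). Cd160 was 16.1-fold [10.2–26.8] and Havcr2 1.63-fold [1.43–1.87] higher in CD8 T cells. Tigit was 2.83-fold [1.96–4.06], Lgals9 1.89-fold [1.62–2.20] and Vsir 1.65-fold [1.46–1.87] higher in Tregs-1. Lag3 (1.43) and Entpd1 (0.774) lay between the limits. Lag3 and Cd160 were lower in proliferating than in other CD8 T cells, at ratios of 0.569 and 0.623, while the other 5 genes lay between the limits (18.5% of genes passed in either direction). For the receptors of the better known pair, Pdcd1 (PD-1) stood at 276 CPM and Ctla4 at 123 CPM in the B16 CD8 T cells, against 49.9 and 36.7 CPM in the naive T cells.

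Co-detection of the 5 genes Lag3, Havcr2, Tigit, Cd160 and Entpd1 was counted in 1 random draw of 2000 UMIs from each cell, since depth differed between clusters. UMIs of at least 2 of them were found in 21.9% of CD8 T cells [19.06–24.97, exact Clopper-Pearson 95% interval] (172 of 785), 13.4% of Tregs-1 cells (70 of 523), 10.7% of proliferating CD8 T cells (45 of 420), 4.85% of Tregs-2 cells (8 of 165), 1.97% of NK cells (5 of 254) and 1.17% of naive T cells (8 of 682). The mean over all possible draws was 23.0% in CD8 T cells, 12.2% in Tregs-1, 11% in proliferating CD8 T cells and 4.66% in Tregs-2. Shallower cells were left out, 2 CD8 T, 23 Tregs-1, 17 proliferating CD8 T, 0 Tregs-2, 22 NK and 61 naive T cells. As deposited the shares were 85.4% in CD8 T cells, 75.1% in proliferating CD8 T cells, 53.9% in Tregs-2, 38.6% in Tregs-1, 5.80% in NK cells and 3.77% in naive T cells. The order of proliferating CD8 T cells, Tregs-2 and Tregs-1 thus changed with depth. UMIs of 3 or more of the genes were found in 4.20% of the thinned CD8 T cells (33 cells), with a mean of 3.79% over all draws. As deposited, Havcr2 was found in 67.8% of CD8 T cells with Lag3 and in 44.6% of those without. At 2000 UMIs these shares were 22.8% and 19.1% over all draws, and the single draw gave 21.9% (68 of 311) and 22.8% (108 of 474), the opposite order.

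The enzyme gene Entpd1 was highest in neutrophils of both tumours. It stood at 326 CPM (Neutrophil-2) and 255 CPM (Neutrophil-1) in B16, and at 271 and 332 CPM in the same clusters of LLC. In B16 the next levels were 96.7 CPM in the macrophage cluster TAM-3, 80.1 CPM in Imm TAM-3, 79.5 CPM in Tregs-1, 74.7 CPM in cDC1, 66.8 CPM in Tregs-2 and 61.5 CPM in CD8 T cells, with 12.9 CPM in naive T cells and 7.57 CPM in migratory dendritic cells (migDC). In LLC it was 131 CPM in neutrophil-like monocytes, 92.0 CPM in Imm TAM-1, 43.0 CPM in monocytes and 14.1 CPM in migDC. Neutrophils over all clusters held 294 CPM in LLC and 277 CPM in B16.

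The ligand gene Lgals9 had its joint-table maximum in Imm TAM-3 of both tumours, with 302 CPM [283–323] for LLC and 174 CPM [163–185] for B16. In B16 this overlapped Neutrophil-1 at 139 CPM [103–182], with Neutrophil-2 at 109 CPM. In LLC Neutrophil-2 came second at 173 CPM, and Neutrophil-1 (89.6 CPM) lay among Imm TAM-1, TAM-1 and neutrophil-like monocytes. The annotation of B16 alone names a cluster of 53 cells, Mac-Lyve1, which held the highest Lgals9 level there, 245 CPM [211–283]. In the 42 B16 cells of the joint cluster TAM Lyve1, Lgals9 was found in 41.0% at 2000 UMIs per cell, against 28.1% of B16 Imm TAM-3 cells. Other B16 clusters lay lower, such as TAM-3 at 99.8 CPM, NK cells at 64.1 CPM and CD8 T cells at 42.5 CPM. MigDC were low in both tumours, at 12.3 CPM (LLC) and 17.9 CPM (B16).

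Vsir was mainly a myeloid gene. In LLC it stood at 348 CPM [336–361] in Imm TAM-1, 305 CPM in monocytes, 273 CPM in neutrophil-like monocytes and 257 CPM in Neutrophil-1. In B16 it was 280 CPM in Neutrophil-1, 237 CPM in monocytes and 180 CPM in TAM-3. B16 Tregs-1 held 116 CPM, naive T cells 84.9 CPM, CD8 T cells 70.0 CPM and NK cells 40.5 CPM. MigDC were lowest in each library of the joint table, at 31.0 CPM (B16) and 19.3 CPM (LLC). In the annotation of B16 alone Mac-Lyve1 was highest at 356 CPM [315–402], and B cells (17.9 CPM, 10 UMIs) lay below migDC (30.2 CPM). In the 42 B16 cells of the joint cluster TAM Lyve1, Vsir was found in 53.4% at 2000 UMIs per cell. Of the 54 Neutrophil-1 cells of B16 with that depth, 45.1% had it.

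By Pearson correlation of log2(CPM + 1) across 21 pairs of class and library, the genes most like Lag3 were Rgs16 (0.879), Ctla4 (0.850) and Nmb (0.850). For Havcr2 they were Rnf7 (0.850), Matk (0.830) and Ap2s1 (0.796). Over the 13 B16 classes, Cd160 was most like Klrc1 (0.958), Fasl (0.955) and Fhl2 (0.947), and Tigit most like Cd320 (0.938), Odc1 (0.915) and Ccr8 (0.900). Entpd1 was most like Hk2 (0.876), Pgp (0.872) and Pwwp2b (0.852), Lgals9 most like Susd6 (0.932), Cd53 (0.927) and Pstpip1 (0.918), and Vsir most like Gm14005 (0.907), Pwwp2b (0.889) and Por (0.876). Lgals9 and Vsir had a correlation of 0.793 with each other, Entpd1 and Vsir 0.774, and Lag3 and Havcr2 0.207. The points share their libraries, so these are descriptions.

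Between tumours, LLC and B16 were compared within the 7 classes that held at least 50 cells in both. In monocytes and macrophages 5 genes were counted well enough, 1 was higher in LLC and 1 higher in B16 (of 11261 genes, 23.8% passed in either direction and 11.9% in each). The clusters that made up this class differed, since Imm TAM-4 (2675 cells) and TAM-1 (1619) led among 9194 LLC cells, and TAM-3 (1292) among 2742 B16 cells. The median log2 ratio of LLC over B16 was -0.24 over the 5 genes and 0.02 over all genes.

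Lag3 was the gene that differed by far the most among these 5 in macrophages, at 6.82 CPM in B16 (228 UMIs) and 0.312 CPM in LLC (24 UMIs). Its distribution within B16 was uneven, with 9.41 CPM in TAM-3 (199 UMIs), 3.11 CPM in Imm TAM-3 and 0.722 CPM in monocytes. LLC had only 7 TAM-3 cells, so the class ratio largely sets this B16 cluster against other LLC clusters. Shared clusters held few Lag3 UMIs. Imm TAM-3 had 18 in B16 and 1 in LLC (3.11 and 0.339 CPM), and Imm TAM-4 had 3 and 5 (4.03 and 0.238 CPM). Imm TAM-2 had 2 and 1, and monocytes 2 and 0. T cell genes moved with Lag3. The 6 T cell genes summed to 106 CPM in B16 macrophages and 8.80 CPM in LLC, the CD8 genes to 16.9 and 0.571 CPM, and 37.4% of B16 macrophages (1025 of 2742) had a UMI of the 7 T or NK cell genes, against 2.49% in LLC (229 of 9194). The B16 cells were also deeper, with a median of 10188 UMIs against 6944. None of the T cell, CD8 or NK marker genes was at 0 in a whole library. Without those cells Lag3 stood at 5.19 CPM in B16 (97 UMIs) and 0.268 CPM in LLC (20 UMIs), a 19.4-fold [11.9–33.1] difference, against 21.9-fold [14.3–34.9] over all cells. In the B16 cells set aside, Lag3 was 8.90 CPM (131 UMIs).

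The ratio of Lag3 to Cd160 UMIs in these macrophages was set beside that of CD8 T cells. B16 CD8 T cells, proliferating cells included, held 3.13 Lag3 UMIs per Cd160 UMI [2.94–3.33]. Macrophages with a T or NK gene UMI held 3.28 [2.28–4.79], and macrophages without held 32.3 [10.7–160], from 97 Lag3 and 3 Cd160 UMIs. The other T cell clusters were not part of that ratio, and Tregs-1 held 686 Lag3 and 19 Cd160 UMIs. The part of T cell RNA in the macrophage level was not tested. The authors' annotation of B16 alone named 2911 cells as monocytes or macrophages, with Lag3 at 13.5 CPM (495 UMIs) and Cd160 at 2.70 CPM (99 UMIs).

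**Figure D2:**
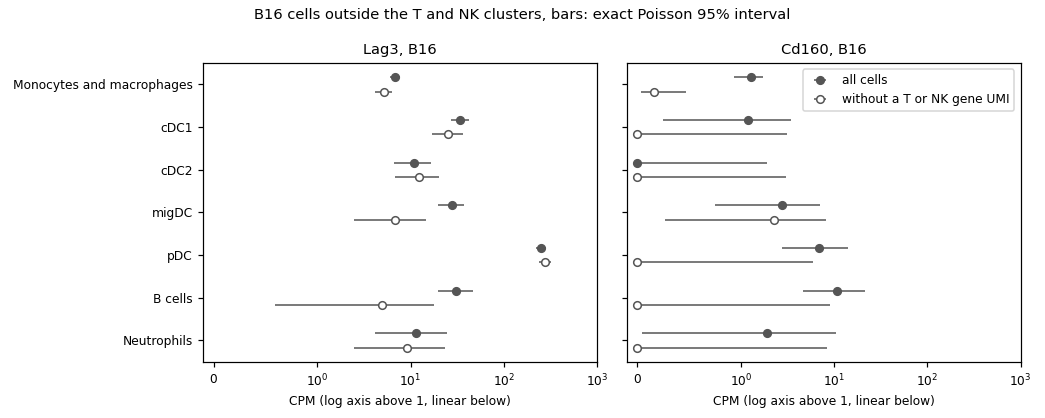
Lag3 (left) and Cd160 (right) in B16 classes other than T and NK cells, in CPM (x axis, logarithmic above 1 and linear below). Filled circles are all cells and open circles the cells without a UMI of 7 T or NK cell genes, with exact Poisson 95% intervals. Lag3 was 254 and 278 CPM in pDC, and lower without those cells in macrophages (6.82 and 5.19 CPM, 228 and 97 UMIs). It was also lower in B cells (31.0 and 4.89 CPM) and migDC (27.5 and 6.73 CPM).

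The other classes differed in whether Lag3 outlasted the removal of cells with T or NK genes. In migDC Lag3 had 40 UMIs in B16 (27.5 CPM) and 0 in LLC, at least 5.22-fold higher in B16 against a floor of 3 UMIs in the LLC class. Only 6 of the 40 UMIs remained without the cells with T or NK genes (6.73 CPM), and B16 migDC as a whole carried 564 CPM of T cell genes against 19.3 CPM in LLC. In B cells Lag3 had 23 UMIs in B16 (31.0 CPM, 9 cells) and 0 in LLC, at least 2.76-fold higher in B16, and 2 UMIs remained. Of those 23 UMIs, 20 lay in 19 cells left out of the authors' annotation of B16 alone. In naive T cells Lag3 was 21.8 CPM in B16 (66 UMIs) and 4.17 CPM in LLC (2 UMIs), a 5.23-fold [1.39–44.1] difference. In type 2 conventional dendritic cells (cDC2) the B16 level was 10.8 CPM and the LLC level 6.60 CPM, 1.64-fold [0.822–3.30] higher in B16 and within counting error. In the annotation of B16 alone cDC2 held 35.9 CPM of Lag3 (110 UMIs), and its cDC2 included 37 of the Tregs-2 cells of the joint table, with 66 Lag3 UMIs. In cDC1 without T or NK gene UMIs Lag3 was 25.4 CPM in B16 (30 UMIs in 68 cells) against 7.23 CPM in LLC (3 UMIs), a 3.51-fold [1.09–18.0] difference. NK cells were the class in which LLC had the larger value, 29.3 CPM against 19.8 CPM, but the ratio of 1.47 [0.789–2.72] lay between the limits.

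Havcr2 was higher in LLC macrophages, at 73.4 CPM against 47.7 CPM in B16, a ratio of 1.54 [1.46–1.63]. Within clusters the ratio was 1.86 [1.41–2.50] in Imm TAM-2, 1.57 [1.34–1.85] in Imm TAM-3, 1.37 [1.16–1.61] in monocytes and 1.31 [0.935–1.88] in Imm TAM-4. It therefore passed the limit in Imm TAM-2 and Imm TAM-3 and not in the other pair, with 30.1%, 22.2%, 19.5% and 33.7% of genes passing in those clusters. In cDC2 Havcr2 was 50.1 CPM in LLC and 33.9 CPM in B16 (ratio 1.48 [1.09–2.02]). In naive T cells it was 12.5 CPM in LLC (6 UMIs) and 4.96 CPM in B16 (15 UMIs), and in migDC 5.28 CPM in LLC (3 UMIs) and 16.5 CPM in B16 (24 UMIs). Those last ratios, 2.53 [0.803–6.89] and 0.320 [0.0616–1.05], passed the rule of size but not the counting error.

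Vsir was higher in LLC in cDC2, at 122 CPM against 75.5 CPM (ratio 1.61 [1.32–1.98]), and in NK cells, at 73.8 CPM against 40.5 CPM (1.83 [1.22–2.72]). Neither call held throughout, with 1.24 in cDC2 at 2000 UMIs per cell and 1.47 in NK cells without the cells of highest doublet score. In macrophages it was 232 CPM in LLC and 184 CPM in B16 (1.26 [1.22–1.30]), with Imm TAM-2 at 1.66 [1.45–1.91]. In migDC it was 19.3 CPM in LLC (11 UMIs) and 31.0 CPM in B16 (45 UMIs), a ratio of 0.625 [0.291–1.23], which turned to 1.24 without the cells of highest doublet score.

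Entpd1 and Lgals9 passed the limit in none of the classes in which they were counted well enough, 5 for Entpd1 and 7 for Lgals9, though with median-of-ratios scaling Lgals9 reached 0.650 in cDC2. Below the minimum, with 8 UMIs in LLC and 11 in B16 each, Entpd1 had ratios past it, 2.02 [0.706–5.52] in B cells and 1.86 [0.649–5.07] in migDC. Entpd1 was 63.3 CPM in LLC macrophages and 84.0 CPM in B16 (ratio 0.753 [0.719–0.789]), and Lgals9 95.1 and 112 CPM (0.848 [0.815–0.882]). Within Imm TAM-3, however, Lgals9 was 1.74-fold [1.59–1.91] higher in LLC. The neutrophil clusters moved apart for Lgals9, 1.55-fold [1.09–2.17] higher in B16 in Neutrophil-1 and 1.59-fold [0.981–2.76] higher in LLC in Neutrophil-2, where 38.9% and 59% of genes passed in either direction.

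In the remaining classes, counted in either direction, 1 of 4 genes passed in NK cells (24.8% of all genes), 2 of 5 in naive T cells (26.8%), 2 of 5 in cDC2 (25.8%), 3 of 4 in migDC (27.7%), 1 of 3 in B cells (31.5%) and 0 of 4 in neutrophils (46.1%). With 3 to 5 genes a class, these shares cannot be told apart from the background. The median log2 ratio of all genes was -0.24 in neutrophils and -0.10 in NK cells, so a ratio of 1 there lies above the typical gene.

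**Figure D3:**
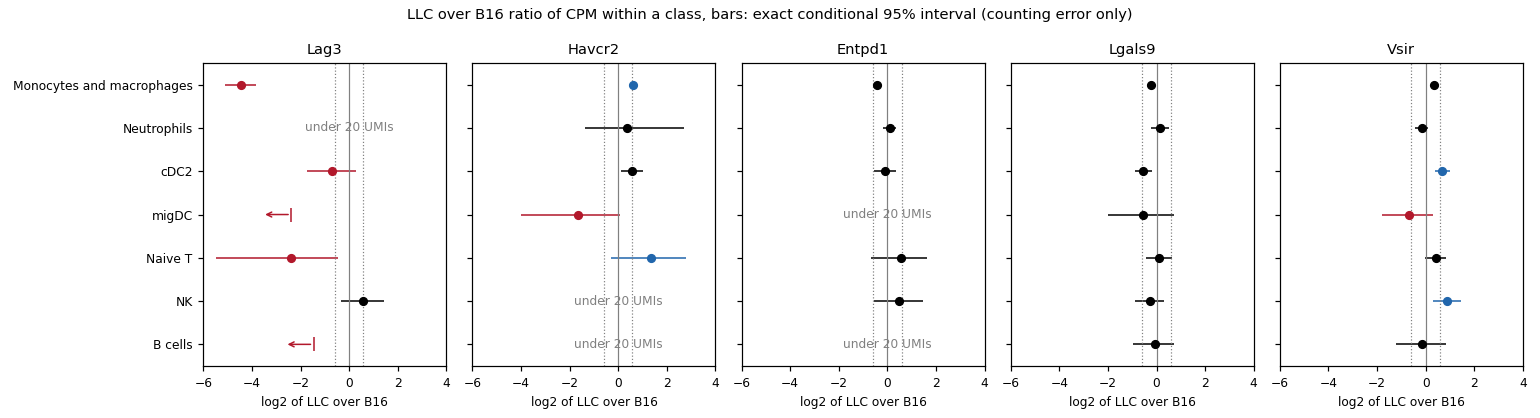
Log2 of the LLC over B16 ratio of CPM (x axis) in 7 classes (y axis), with exact conditional 95% intervals that cover counting error only. Dotted lines mark 1.5-fold, blue is higher in LLC, red higher in B16, and arrows are bounds against a class with 0 UMIs. Lag3 of monocytes and macrophages lies farthest from the line of no difference among the ratios with UMIs on both sides (21.9-fold), and all points of Entpd1 and Lgals9 lie inside the limits.

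Partners of these proteins were followed as a list of 32 ligands, competing receptors, enzymes and sheddases, of which 29 were in the joint table. In macrophages 26 were counted well enough, 4 were higher in LLC, 13 higher in B16 and 9 between, with a median log2 ratio of -0.51 against 0.02 for all genes, of which 11.9% were higher in LLC and 11.9% in B16. Nt5e (CD73), which acts after CD39, was 34.7 CPM in LLC and 4.79 CPM in B16, 7.25-fold [6.18–8.56] higher in LLC. The adenosine receptor gene Adora2b was 2.57-fold, Adora3 2.35-fold and the ADP receptor gene P2ry12 1.58-fold higher in LLC. On the B16 side, the MHC class II genes H2-Aa and H2-Ab1, whose products bind LAG-3, were 4.88-fold and 4.38-fold higher. Cd4 was 11.2-fold and Cd226, the activating competitor of TIGIT, 9.22-fold higher in B16. Both are also T cell genes, and the part of T cell RNA was not tested. Timd4, the gene with the largest difference, was 11.5-fold [4.33–38.5] higher in B16 with 25 and 5 UMIs.

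In the other classes the partners were divided between the tumours. Of 18 counted in cDC2, 6 were higher in LLC and 2 in B16 (25.8% of genes passed in either direction), with Nt5e 6.99-fold [2.51–27.0] higher in LLC. NK cells gave 2 and 5 of 13 (24.8% of genes), naive T cells 3 and 3 of 17 (26.8%) and neutrophils 4 and 5 of 16 (46.1%). MigDC gave 2 and 1 of 14 (27.7%) and B cells 2 and 1 of 10 (31.5%). H2-Aa was 4.44-fold higher in B16 in NK cells and 5.40-fold in naive T cells. Those clusters also carried monocyte and macrophage genes in each library, and the part of RNA from other cells in H2-Aa was not tested. Pvr, the TIGIT ligand gene, had its highest levels in migDC (LLC 45.7 CPM, B16 44.0 CPM). Btla, which shares the ligand HVEM with CD160, was highest in B cells (LLC 176 CPM, B16 146 CPM). Nt5e was highest in Imm TAM-2 of LLC (75.2 CPM), followed by Tregs-1 of B16 (61.9 CPM).

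The separate table of monocytes and macrophages had 11 subsets, filled by 8155 cells from LLC, 10131 from LLC CITE-seq and 2297 from B16. All of its LLC cells and 2296 of its B16 cells were also in the joint table, so these values are not independent of those above, while the CITE-seq cells were a further library. Lag3 was 5.45 CPM in B16 (135 UMIs), 0.129 CPM in LLC (8 UMIs) and 0.298 CPM in LLC CITE-seq (17 UMIs), so both LLC libraries were low. B16 was 42.1-fold [20.8–99.6] above LLC and 18.3-fold [11–32.3] above LLC CITE-seq (23.7% and 21% of genes passed in either direction). Cd160 had 4 UMIs in these B16 cells, 0 in LLC and 2 in LLC CITE-seq. Most B16 Lag3 UMIs, 112 of 135, lay in TAM-1, a subset of 941 B16 cells with 8.24 CPM. The subset names used from here on are not the cluster names of the joint table, even where they read alike. TAM-1 of the joint table held 1619 LLC and 6 B16 cells.

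**Figure D4:**
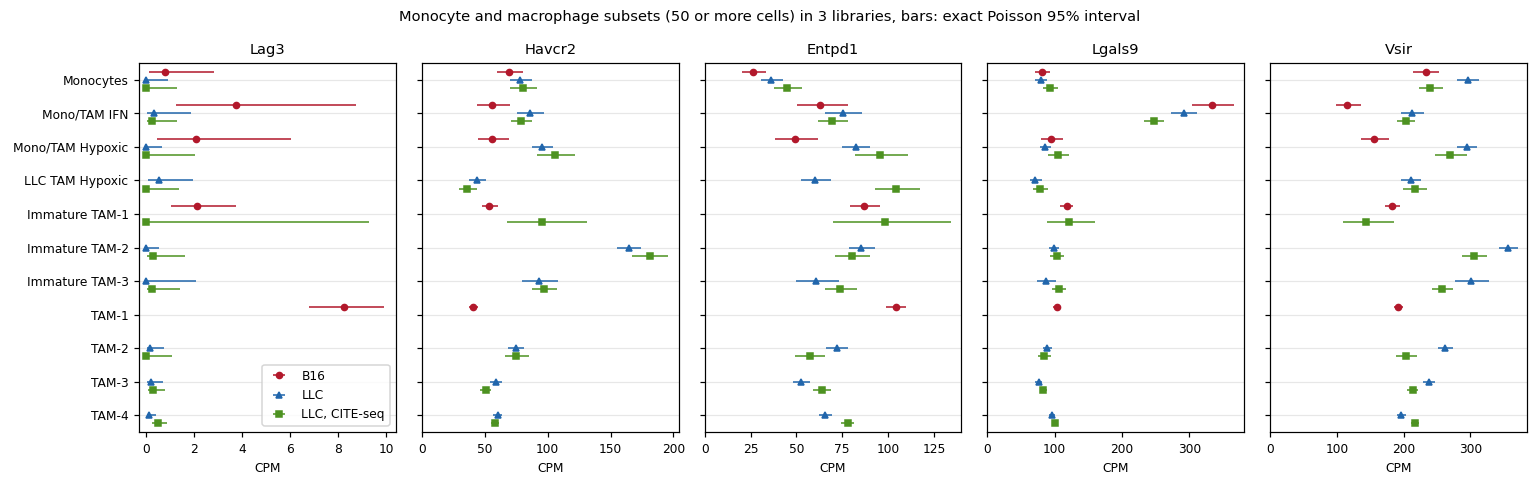
Level in CPM (x axis) in monocyte and macrophage subsets with 50 or more cells in a library (y axis). Red circles are B16, blue triangles LLC and green squares LLC CITE-seq, with exact Poisson 95% intervals that cover counting error only. Lag3 is seen mainly in B16 TAM-1 (8.24 CPM), Lgals9 stands out in Mono/TAM IFN of all 3 libraries, and Havcr2 in Immature TAM-2 of both LLC libraries.

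Lgals9 was highest in the subset that the authors named Mono/TAM IFN in every library, at 334 CPM in B16, 292 CPM in LLC and 248 CPM in LLC CITE-seq. The ratio over all other subsets was 3.24 [2.92–3.59] in B16, 3.31 [3.07–3.55] in LLC and 2.60 [2.44–2.78] in LLC CITE-seq. Of all genes, 11.2%, 8.59% and 7.82% were higher in that subset. The subset was formed from the RNA of the same cells, so the ratio is a description. Lgals9 is the gene shown above with matches to the interferon element letters, and whether those letters matter in these cells was not tested. Havcr2 and Entpd1 lay between the limits in all 3 libraries. Vsir passed the limit in B16, where it was lower in the subset, at 116 CPM against 194 CPM (ratio 0.597 [0.505–0.701], where 34.9% of genes were lower), with ratios of 0.848 in LLC and 0.898 in LLC CITE-seq. Whether these 3 ratios differ was not tested.

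Both LLC libraries differed from B16 in the same direction for several genes, though they share the B16 cells they were compared with. In the Mono/TAM Hypoxic subset, Havcr2 was 95.5 CPM in LLC, 106 CPM in LLC CITE-seq and 56.0 CPM in B16 (ratios 1.71 and 1.90). Entpd1 was 82.5, 95.8 and 49.0 CPM (1.68 and 1.95), and Vsir 295, 270 and 156 CPM (1.89 and 1.73). In this subset 31.1% and 25.8% of genes passed in either direction. In Mono/TAM IFN, Vsir was 213 CPM in LLC, 204 CPM in LLC CITE-seq and 116 CPM in B16 (1.84 and 1.76), where 30.9% and 34.6% passed. Over the whole table Havcr2 was 79.2, 71.2 and 48.9 CPM, and the ratios of 1.62 and 1.46 fell on both sides of the limit. The LLC libraries were close to each other, with Lag3 alone among the 5 genes counted past 1.5-fold (2.30 [0.943–6.17], 17 and 8 UMIs), where 5.85% of genes passed.

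Havcr2 and Vsir were both high in Immature TAM-2, a subset with 22 B16 cells. Havcr2 stood there at 165 CPM in LLC and 181 CPM in LLC CITE-seq, and Vsir at 357 and 306 CPM. The lowest Havcr2 levels of LLC were in the subset LLC TAM Hypoxic, at 44.0 and 36.1 CPM. Entpd1 there was 60.3 CPM in LLC and 105 CPM in LLC CITE-seq. Monocytes had the lowest Entpd1 in each library, at 36.4 CPM in LLC, 44.9 CPM in LLC CITE-seq and 26.2 CPM in B16.

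The CITE-seq antibody tags read the proteins on 10131 LLC monocytes and macrophages, with 172 tags, 9 of them isotype controls, and a median of 538 tag UMIs per cell. The CD39 tag (Entpd1) had a mean of 8.83 UMIs per cell, a median of 4, and at least 1 UMI in 87.6% of cells. Its mean was carried in part by 4 cells with 10598, 8679, 1805 and 1047 UMIs, which held 24.8% of all CD39 UMIs, while the fifth cell had 146. In the highest cell, 92.4% of all tag UMIs were CD39, and no Entpd1 UMI was counted. Without these 4 cells the mean was 6.65.

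By subset, CD39 was high on TAM-4 and LLC TAM Hypoxic cells and low on monocytes. TAM-4 had a mean of 16.8 and a median of 10, and a mean of 13.1 without the extreme cells. LLC TAM Hypoxic had a mean of 30.9, a median of 8 and a mean of 10.2 without its extreme cell, so which of these subsets came first by the mean depended on 1 cell. Their median tag totals were 767 in TAM-4 and 654 in LLC TAM Hypoxic. Per 10000 tag UMIs of the subset, without the extreme cells, CD39 was 131.6 in TAM-4 and 135.5 in LLC TAM Hypoxic. Immature TAM-3 followed at a mean of 8.92 and a median of 7. Mono/TAM IFN (5.32), TAM-3 (4.93, or 4.15 without its extreme cell), TAM-2 (4.33), Mono/TAM Hypoxic (4.31) and Immature TAM-1 (3.88) all had a median of 3. Immature TAM-2 had a mean of 2.01 and monocytes of 1.04, both with a median of 1. These subsets also had low tag totals, with a median of 340 in Immature TAM-2 and 263 in monocytes against 979.5 in Immature TAM-3. Per 10000 tag UMIs of the subset, CD39 was 51.3 in Immature TAM-2, 30.5 in monocytes and 77.6 in Immature TAM-3. Entpd1 RNA of Immature TAM-2 was 80.3 CPM. Across the 10 subsets, without the extreme cells, the mean CD39 tag and Entpd1 CPM had a Pearson correlation of 0.376. The Spearman correlation was 0.261. With the tag per 10000 tag UMIs, also without the extreme cells, these were 0.503 and 0.370, a description of 10 points from 1 library.

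Cell by cell, the CD39 tag rose with Entpd1 UMIs, but so did depth. Leaving out the extreme cells, the mean was 5.14 in 7051 cells with 0 Entpd1 UMIs, 8.39 in 2236 cells with 1, 12.9 in 637 cells with 2 and 20.2 in 203 cells with 3 or more. The median tag total of these cells rose from 491 to 1244 and the median RNA total from 4082 to 10771 UMIs. Per 10000 tag UMIs, CD39 was 85.3, 104, 123 and 121 in that order. These cells came from all subsets together. Within TAM-4 alone the values per 10000 tag UMIs were 126, 133, 142 and 139, a smaller rise.

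**Figure D5:**
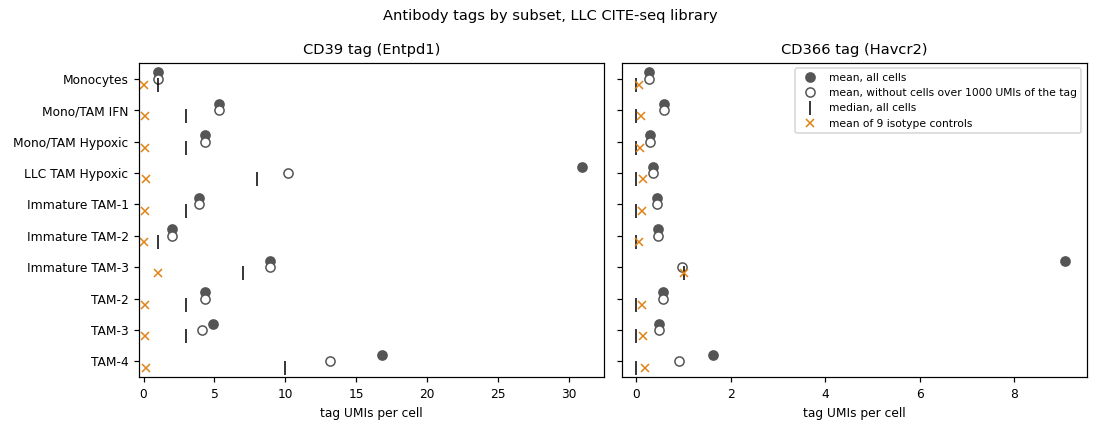
Tag UMIs per cell (x axis) of the CD39 tag (left) and the CD366 tag (right) by subset (y axis) in the LLC CITE-seq library. Filled circles are means of all cells, open circles means without cells over 1000 UMIs of the tag, bars medians, and crosses the mean of 9 isotype controls. The CD39 mean of LLC TAM Hypoxic falls from 30.9 to 10.2, and the CD366 mean of Immature TAM-3 from 9.08 to 0.963.

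The CD366 tag (TIM-3) was low once 3 cells were set aside. Its mean was 1.16 UMIs per cell, and 3 cells with 2075, 1904 and 1860 UMIs held 49.5% of all its UMIs, without which the mean was 0.588. The highest mean of an isotype control, rat IgG1 lambda, was 0.890, and 0.522 without its 2 cells over 1000 UMIs. The CD366 mean lay above this control both ways, and the second highest control, rat IgG1 kappa, had a mean of 0.268. The highest pair of CD366 cells, both in Immature TAM-3, also carried 1860 and 1868 UMIs of that control. The mean of Immature TAM-3 went from 9.08 to 0.963 without them, beside an isotype mean of 0.999 and 0.153. The tags of CD223 (LAG-3) and TIGIT had means of 0.105 and 0.0672, within the range of the isotype controls, 0.0248 to 0.890. CD223 was 0.159 on TAM-4 (413 UMIs, median tag total 767) and 0.0671 on monocytes (56 UMIs, median tag total 263), beside isotype means of 0.180 and 0.0604.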

How the data were processed

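Droplet libraries of mouse tumours, each pooled from 3 mice, were analysed: LLC, B16 and an LLC CITE-seq library with its antibody tags. The authors deposited raw UMI count tables of cells with their own cluster names; per the labels, reads were processed with Cell Ranger on mm10; its version was not given in the sources used here. Genes and lists were chosen with earlier results of these data known. Counts were summed over the cells of a cluster or of 1 of 14 classes and divided by the total (CPM), with exact 95% intervals. A ratio was called at 1.5-fold with at least 20 UMIs over both sides, on all genes of the table, and a class with 0 UMIs was given a floor of 3. A gene with 0 UMIs in a whole library was not compared. PCR duplicates are removed by UMIs, and intervals and floors cover only the error of counting. Since each group is 1 library, p-values and standard errors are not given. The ratio script was tested on simulated data.

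All 7 genes were described in every cluster of at least 50 cells. Of the partners, those named were the highest and lowest by ratio, the class II genes and the enzymes and receptors of adenosine, some chosen after their values were seen. The 3 genes of highest correlation were named as most like each gene, among genes with at least 20 CPM in a class. Scrublet (scanpy 1.11.5) called 1 LLC cell and 0 B16 cells, so its call was not used and no cell was removed, and an alternative left out the 6% of cells with the highest score (781 LLC and 431 B16 cells). Other alternatives changed the scaling, the UMI minimum, the fold, the depth, the annotation, and the cells with T or NK genes or extreme tags. Leaving out cells over 1000 UMIs of a tag, and the mean over all draws of thinned UMIs, were chosen after seeing the data. The sources used here do not say whether doublets were removed by the authors. Python 3.11.15, numpy 2.4.6, scipy 1.17.1, pandas 2.3.3 and matplotlib 3.10.9 were used. Promoters were matched by symbol.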

Additional observations from a re-analysis of the deposited data

Results flagged for a closer look

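Havcr2 and Vsir had LLC over B16 ratios on opposite sides in different classes. For Havcr2 the ratio was 1.539 in monocytes and macrophages and 2.526 in naive T cells, higher in LLC, and 0.3195 in migDC, higher in B16. For Vsir it was 1.825 in NK cells and 1.613 in cDC2, higher in LLC, and 0.6247 in migDC, higher in B16. The difference between classes was not tested, because each tumour was 1 library. The migDC ratios rest on 3 and 11 LLC UMIs, and their intervals (0.0616 to 1.05 for Havcr2, 0.291 to 1.23 for Vsir) include 1.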

How the results depend on the processing

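Of 209 recomputed LLC over B16 ratios of single genes, 192 kept their side of the limits. For the 30 at a minimum of 10 UMIs and the 30 with no minimum this was fixed in advance. Neither setting changes a ratio or a limit. After thinning, 18 of the 30 ratios still had enough UMIs, and 16 kept their side. Without the cells of highest doublet score 25 had enough, and 21 kept their side. The number of genes past 1.5-fold moved by over 1.5 times in the following cases. With a minimum of 10 UMIs or no minimum it was 2 in B cells in place of 1, and with no minimum 1 in neutrophils in place of 0. Median-of-ratios scaling gave 2 in NK cells (1 before) and 1 in neutrophils. A 2-fold limit gave 1 in macrophages (2 before), 0 in NK cells and 0 in cDC2 (2 before). Thinning to 2000 UMIs gave 1 in naive T cells (2 before), 0 in cDC2 and 0 in migDC (3 before). Without the cells of highest doublet score it was 0 in B cells, 1 in naive T cells and 0 in migDC, where Vsir turned to 1.24. Without cells with T or NK gene UMIs it was 0 in B cells and 0 in migDC; fewer cells were then counted. The annotation of B16 alone put Lag3 at 341 CPM in CD8 T cells (283 in the joint one) and 13.5 CPM in macrophages (6.82). The CD39 mean of LLC TAM Hypoxic over TAM-4 was 1.84, and 0.833 without the top 1% of cells by tag total, 0.8 by medians, 0.776 without cells over 1000 UMIs and 1.10 by the mean over cells of CD39 per 10000 tag UMIs. TAM-4 over monocytes was 16.2, and 12.1, 10, 12.7 and 5.31 in that order. CD366 of Immature TAM-3 over TAM-4 was 5.63, and 1.12, 1.07 and 2.03 by the first, the third and the last of these. Co-detection in CD8 T cells was 21.9%, 85.4% as deposited, 7.88% at 1000 UMIs and 23.0% as the mean over all draws, chosen after seeing the data. No paired analysis was possible because each group is 1 library. Depth limits Tigit, Lag3 in LLC, and all genes in migDC and B cells.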
